A study of Mus musculus with 12 samples.

Results

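Mitochondrial ribosomal proteins were followed at the RNA level in mouse resting B (RB) cells 4 h after stimulation. The members were the 75 genes whose name on the array starts with Mrpl or Mrps followed by a number, out of 50090 gene names on the array, and 46 were Mrpl and 29 were Mrps genes. They were covered by 111 probes, and the probe with the highest mean signal stood for its gene. The RB cells came from spleens of 6-week-old female BALB/c mice and were purified by depletion of CD43+ cells. Each of 6 conditions was hybridised to 2 single-colour arrays, 12 arrays in all, and cells of every condition were cultured in medium with fetal calf serum. The conditions were unstimulated, Pam2csk4 (a lipopeptide ligand of TLR-2), anti-CD86, anti-CD86 and Pam2csk4, anti-CD40, and anti-CD40 and Pam2csk4. By the paper's methods anti-CD86 was a biotinylated antibody that was cross-linked with streptavidin. None of the 12 arrays is labelled as an isotype control. By the study's account the arrays of a condition are biological replicates, but the labels do not say that they came from separate mice, so p-values measure the spread between these samples. An array reads a population of cells, so fewer cells of a type and less RNA per cell cannot be told apart.

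The mitochondrial ribosome translates the small number of proteins encoded in mitochondrial DNA, which are subunits of the respiratory chain and of ATP synthase. Its RNA is made in the organelle, whereas all of its proteins are encoded in the nucleus, made in the cytosol and imported. Some of these proteins descend from bacterial ribosomal proteins, and others were gained in mitochondria. Of the 75 members, 48 were counted in the large subunit, which forms the peptide bond, and 27 in the small subunit, which reads the mRNA. Mrps36 is counted in the small subunit by its name, although it has since been assigned to another complex. The proteins of 47 members have a bacterial homolog, and those of 28 have none.

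All 75 members gave a signal well above background on all 12 arrays, and no member's spot was saturated. Levels are on a log2 scale relative to the 75th percentile of each array, so 0 means a spot as bright as that percentile and a difference of 1 means a doubling. Levels of different probes are not compared with each other. The model fitted across 31599 detected probes tested 74 of the members, and Mrps26 was left out because its spot was flagged as an outlier on 1 array. A member is called higher or lower where the p-value of limma, adjusted over all 31599 probes by the Benjamini-Hochberg method, is below 0.05. Counts at an unadjusted p below 0.05 are given for members and listed genes alone, without the share of all probes at that threshold. Such counts are therefore not read as a result about the members or lists. Mrps26 read 4.44 and 4.46 in unstimulated cells and 4.05 and 4.06 with anti-CD40 and Pam2csk4.

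The arrays sat on 2 slides, and this touches every result except the comparison of anti-CD40 and Pam2csk4 with unstimulated cells, whose 4 arrays were all on slide 1 (its error is still estimated over all 12 arrays). Slide 2 held replicate 2 of Pam2csk4, anti-CD86, anti-CD86 and Pam2csk4, and anti-CD40. With slide as a term in the model, 73 of the 74 members were lower on slide 2 than on slide 1, with a median difference of -0.25, and 61 of them (82.4%) passed the test in that direction. Over all probes the median slide difference was -0.13 and 39.3% were called lower. Values from slide 1 arrays alone are given beside most of the results below. The share of spots well above background ran from 46.6% to 60.6% per array, and the highest was anti-CD40 replicate 2. All 8 B cell markers were well above background on all arrays, with a summed signal between 7.24 and 7.84 (log2) over the 7 left after Cd79b, which was saturated on all 12 arrays. Markers of other spleen cells were also detected: 5 of 6 T cell markers on all arrays (summed 3.79 to 4.36), 2 of 3 NK markers (-1.28 to -0.66), all 8 myeloid markers (6.47 to 7.21 without S100a9, which was saturated on all 12 arrays) and all 3 plasma cell markers (2.96 to 3.74). Between unstimulated cells and anti-CD40 and Pam2csk4 the mean summed level, again without these 2 saturated genes, went from 7.39 to 7.81 for B cell markers, from 7.21 to 6.79 for myeloid markers, from 4.36 to 4.21 for T cell markers, from -0.69 to -1.19 for NK markers and from 3.62 to 3.02 for plasma cell markers. The T cell list holds Cd5, which the paper also measured as protein on RB cells. Its signal thus need not come from T cells. The part of other cells in the results was not tested.

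The median member was below its unstimulated level on every stimulated array. On slide 1 the median difference from the unstimulated mean was -0.11 for Pam2csk4, -0.27 for anti-CD86, -0.25 for anti-CD86 and Pam2csk4, -0.18 for anti-CD40, and -0.09 and -0.11 for the 2 arrays of anti-CD40 and Pam2csk4. On slide 2 it was -0.35 for Pam2csk4, -0.39 for anti-CD86, -0.48 for anti-CD86 and Pam2csk4, and -0.46 for anti-CD40. The same median over all tested probes stayed between -0.16 and 0.01 on these 10 arrays. On the array of anti-CD86 and Pam2csk4 on slide 2, 70 of the 74 members lay below both unstimulated arrays and 2 lay above both. On its slide 1 array 56 lay below and 13 above. The other slide 2 arrays had 69 (Pam2csk4), 69 (anti-CD86) and 63 (anti-CD40) members below. On the 2 arrays of anti-CD40 and Pam2csk4, both on slide 1, 39 and 40 lay below and 32 lay above on each. These counts per array were not made over all probes, so they are not read as a result about the members.

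**Figure D1:**
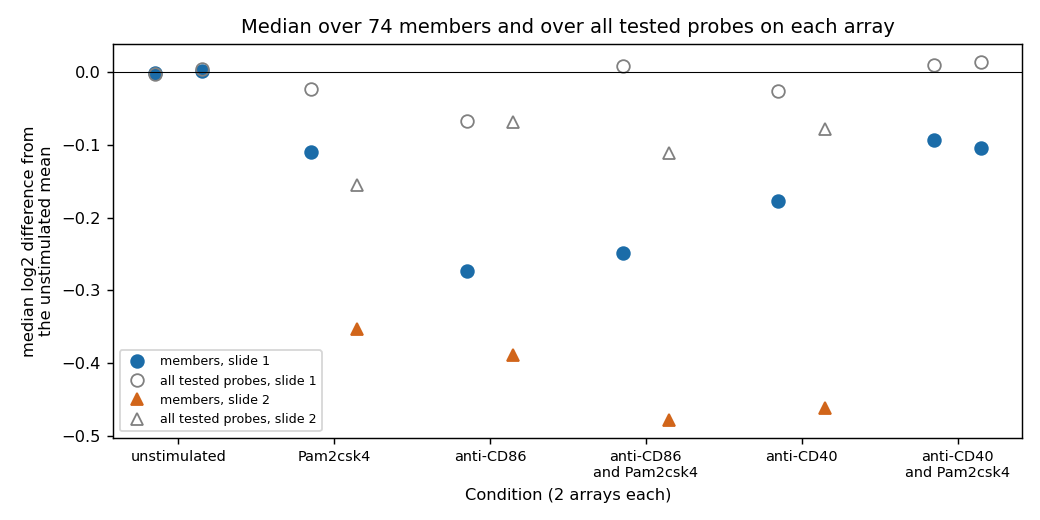
Median log2 difference from the unstimulated mean, over the 74 tested members (filled) and over all tested probes (open), on each of the 12 arrays; circles are slide 1 and triangles slide 2. Members lay between -0.09 and -0.48 on all stimulated arrays, and lower on slide 2 than on slide 1 in each of the 4 conditions that spanned both.

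With anti-CD40 and Pam2csk4, 6 of 74 members were higher than in unstimulated cells and 6 were lower, where 8.54% of all probes were called higher and 9.7% lower. The higher members were Mrps2, Mrpl50, Mrpl12, Mrps6, Mrpl39 and Mrps18b. The lower ones were Mrps16, Mrps25, Mrpl44, Mrps18c, Mrpl49 and Mrpl18. The median difference over the 74 members was -0.09, against 0.01 over all probes, and the differences ran from -0.66 to 0.87. On both arrays 29 members were above and 36 below both unstimulated arrays, as were 38.5% and 37.5% of all probes. Each subunit had 3 members called in each direction, of 48 tested in the large and 26 in the small subunit. Leaving out 1 array, which leaves 1 array in a condition, left few or no members called and also lowered the calls among all probes. The member median then lay between -0.11 and -0.06, and that of all probes was 0.01. In a fit of slide 1 arrays alone, a setting added after the slide difference was seen, the member median was again -0.09. With slide as a block 17 members were higher and 30 lower, where 23.8% of all probes were called higher and 23.7% lower, so how the share of lower members stood to that of all probes depended on the fit. With arrays centred on their median in place of the 75th percentile, limma called 0 members in any comparison, with 0 at an unadjusted p below 0.05 in this one and 33 with anti-CD40 alone.

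Among proteins of the small subunit, Mrps2 encodes the counterpart of bacterial S2. Its signal was 0.40 and 0.27 in unstimulated cells and 1.25 and 1.15 with anti-CD40 and Pam2csk4, a difference of 0.87 ± 0.22 (SE, adjusted p = 0.0308), or 1.82-fold. It read 0.67 and 0.36 with Pam2csk4, 0.30 and 0.00 with anti-CD86, 0.54 and 0.00 with anti-CD86 and Pam2csk4 and 1.20 and 0.80 with anti-CD40. The arrays with anti-CD40 thus lay above all 8 others, with the second Mrps2 probe, which is dimmer, at 0.26 and not called for anti-CD40 and Pam2csk4. Mrps6, the counterpart of bacterial S6, read 3.02 and 3.03 in unstimulated cells and 3.77 and 3.71 with anti-CD40 and Pam2csk4, a difference of 0.72 ± 0.18 (SE, adjusted p = 0.0272). Its levels with Pam2csk4 (2.98 and 2.67), anti-CD86 (2.85 and 2.68) and anti-CD86 and Pam2csk4 (2.89 and 2.55) were all below the unstimulated ones, and anti-CD40 alone gave 3.47 and 3.10. Here the second probe moved the same way, by 0.80, and was called.

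Among proteins of the large subunit, Mrpl12 encodes a protein of the flexible stalk that also binds the mitochondrial RNA polymerase. It read 4.75 and 4.86 in unstimulated cells and 5.49 and 5.57 with anti-CD40 and Pam2csk4, a difference of 0.73 ± 0.18 (SE, adjusted p = 0.0282). With anti-CD40 alone it read 5.24 and 4.90, above the unstimulated arrays on both, and it was between 4.42 and 4.81 on the 6 arrays of the other stimulations. Mrpl50, which has no bacterial homolog, gave 3.17 and 3.09 in unstimulated cells, 3.87 and 3.60 with anti-CD40 and 3.98 and 3.92 with anti-CD40 and Pam2csk4. These are differences of 0.60 ± 0.14 (SE, adjusted p = 0.0272) and 0.82 ± 0.14 (SE, adjusted p = 0.0066). It had the lowest p-value of all members in the test of any difference among the 6 conditions, but a dimmer second Mrpl50 probe differed by -0.02 and 0.11 in these comparisons and was not called. Mrpl39, a mitochondria-specific protein that resembles a threonyl-tRNA synthetase, read 0.98 and 1.00 unstimulated, 1.46 and 1.33 with anti-CD40 and 1.47 and 1.48 with anti-CD40 and Pam2csk4, with differences of 0.41 ± 0.10 (SE, adjusted p = 0.0337) and 0.49 ± 0.10 (SE, adjusted p = 0.0139). In the conditions without anti-CD40 it stayed between 0.91 and 1.07.

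**Figure D2:**
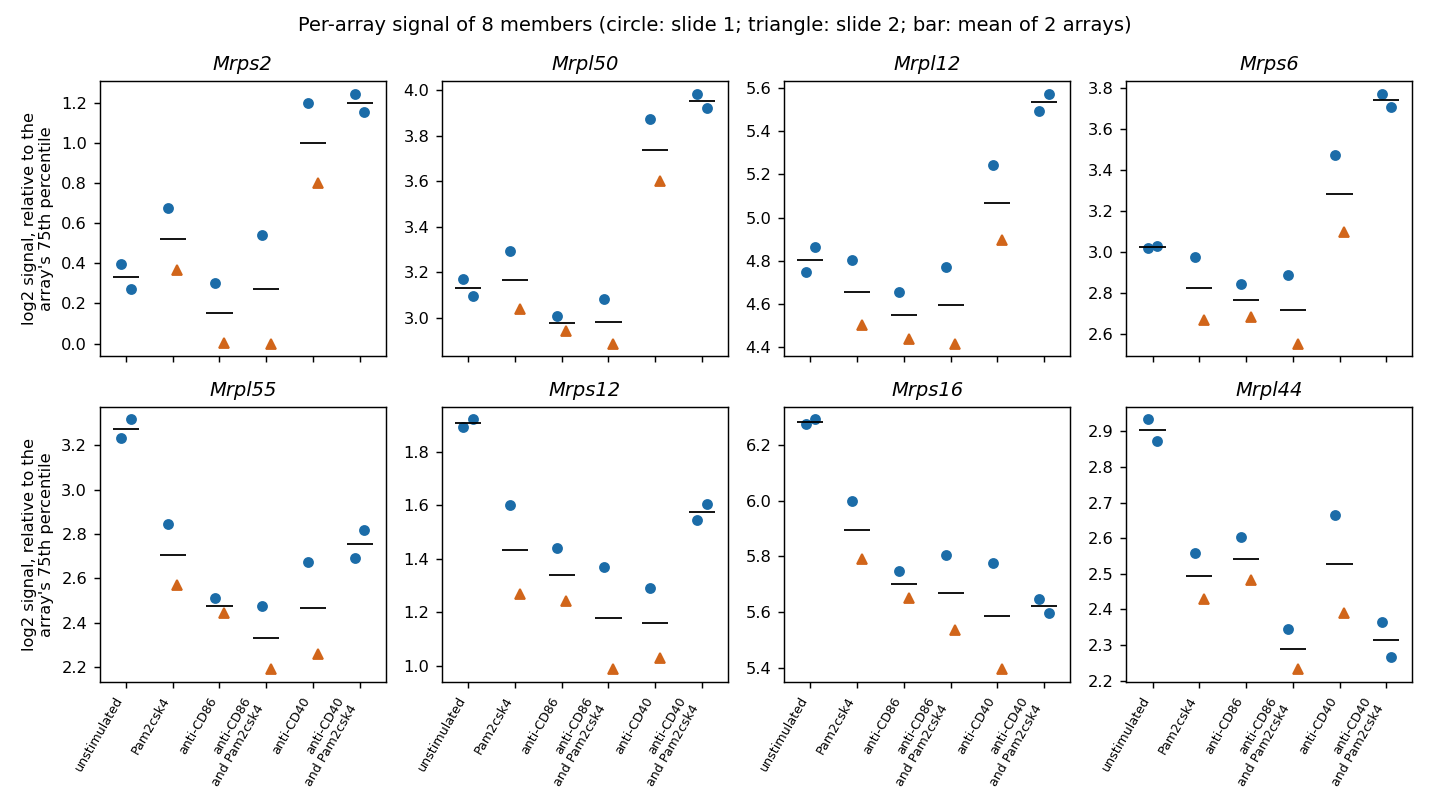
Signal of 8 members on each of the 12 arrays (log2, relative to the array's 75th percentile), by condition; circles are slide 1, triangles slide 2 and bars the mean of 2 arrays, and each panel has its own axis. In the top row the arrays with anti-CD40 are the highest, and in the bottom row the 2 unstimulated arrays are above all others.

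Mrps16, a core protein of the small subunit, had a level of 6.27 and 6.29 in unstimulated cells and 5.65 and 5.60 with anti-CD40 and Pam2csk4, a difference of -0.66 ± 0.16 (SE, adjusted p = 0.0239). Mrpl44, a large-subunit protein with an RNase III-like fold, had 2.93 and 2.87 unstimulated and 2.36 and 2.27 stimulated, a difference of -0.59 ± 0.13 (SE, adjusted p = 0.0169), and the remaining Mrpl44 probes fell by 1.03 and 1.32 and were both called. Mrpl49, a mitochondria-specific protein of the large subunit, had 3.61 and 3.61 unstimulated and 3.15 and 3.19 stimulated, a difference of -0.45 ± 0.12 (SE, adjusted p = 0.0355), again with both other probes called lower. Mrpl18, whose bacterial counterpart binds 5S rRNA, differed by -0.42 ± 0.11 (SE, adjusted p = 0.0356), while the remaining Mrpl18 probes, at -0.17 and -0.18, were not called. All 4 members lay below both unstimulated arrays on every array of every stimulation.

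Mrps25 was lower by its brightest probe only. That probe gave -0.42 and -0.46 in unstimulated cells and -1.18 and -0.98 with anti-CD40 and Pam2csk4, a difference of -0.64 ± 0.15 (SE, adjusted p = 0.0229). The other Mrps25 probe, with a mean signal of -1.87, was higher by 1.00 (adjusted p = 0.00386) in the same comparison. The 2 probes were also called in opposite directions for anti-CD40 alone, at -0.66 and 0.65, so the direction of the gene is not settled. Among the 12 called members, 8 had another tested probe; every other probe had the same sign in 7 of them, and at least 1 was called in the same direction in 4.

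The 3 Mrps18 paralogs, which are copies of 1 bacterial protein, had different outcomes. Mrps18b read -0.47 and -0.56 in unstimulated cells and -0.12 and 0.03 with anti-CD40 and Pam2csk4, and was higher by 0.47 ± 0.13 (SE, adjusted p = 0.0347). Mrps18c read 2.74 and 2.81 unstimulated and 2.17 and 2.23 stimulated, with a difference of -0.57 ± 0.12 (SE, adjusted p = 0.0149), and 2.11 and 1.86 with anti-CD40 alone, a difference of -0.79 ± 0.12 (SE, adjusted p = 0.00735). Both Mrps18c probes were called lower in both comparisons. Mrps18a, which sits in the large subunit, read 1.61 and 1.55 unstimulated and 1.58 and 1.41 stimulated and did not pass (difference -0.09, 95% confidence interval -0.50 to 0.33). The differences between the paralogs were not tested.

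**Figure D3:**
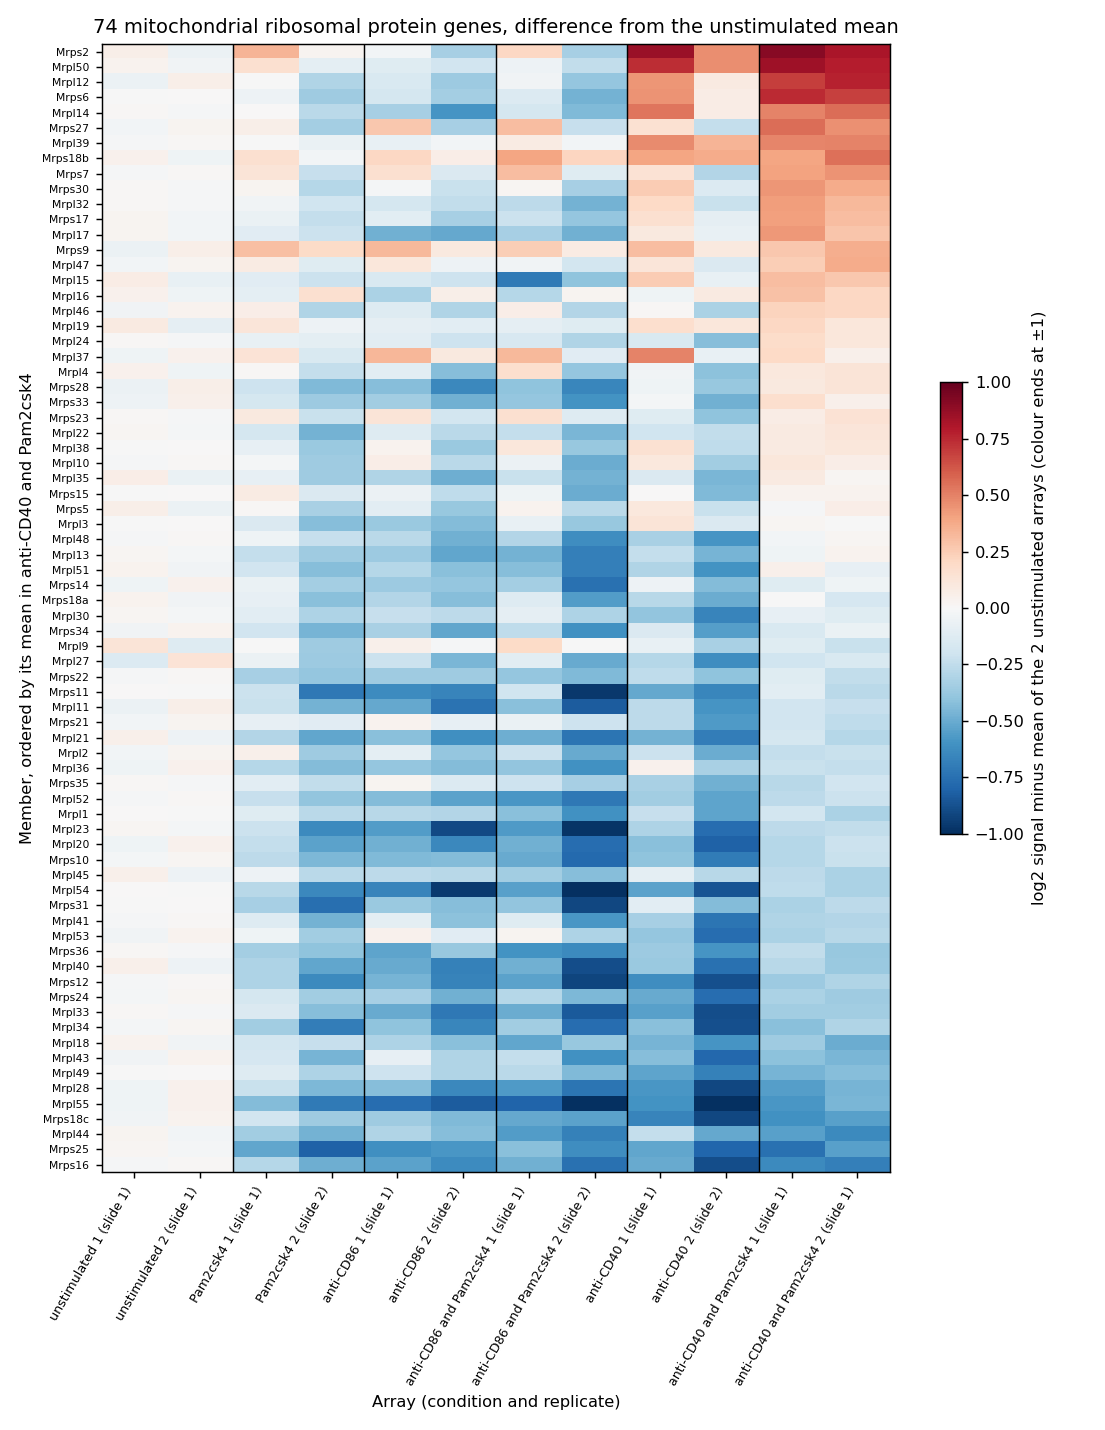
Each row is one of the 74 tested members and each column an array; colour gives the log2 signal minus the mean of the 2 unstimulated arrays, from blue (lower) to red (higher). The blue of the 4 conditions in the middle deepens on their slide 2 array, and the 2 arrays of anti-CD40 and Pam2csk4 at the right show red rows at the top (Mrps2, Mrpl50, Mrpl12 and Mrps6 the highest) and blue rows at the bottom.

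Promoters are shown for 4 of these members because they stand among the lowest p-values over the 6 conditions and because their sequence holds one of the short motifs searched. The sequences run from 250 bases before to 50 after the transcription start, on the strand of the gene, 5′ to 3′, from RefSeq for build GRCm38.p6. Capitals mark the matches, found on either strand. The motifs were GCATGCG (core of the NRF1 site), CCGGAAG (core of the site of ETS factors such as GABPA), ATGGCGG (core of the YY1 site, which holds the letters ATG) and CACGTG (the E-box bound by MYC). The NRF1 core is close to a palindrome, so matches on both strands overlap within the 8 capitals nearest the start of Mrpl17 and the 8 capitals of Mrpl39. The windows are chr4:49521034-49521333, minus strand, for Mrpl50; chr7:105811038-105811337, minus strand, for Mrpl17; chr16:84735195-84735494, minus strand, for Mrpl39; and chr5:100798509-100798808, plus strand, for Mrps18c.

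Mrpl50: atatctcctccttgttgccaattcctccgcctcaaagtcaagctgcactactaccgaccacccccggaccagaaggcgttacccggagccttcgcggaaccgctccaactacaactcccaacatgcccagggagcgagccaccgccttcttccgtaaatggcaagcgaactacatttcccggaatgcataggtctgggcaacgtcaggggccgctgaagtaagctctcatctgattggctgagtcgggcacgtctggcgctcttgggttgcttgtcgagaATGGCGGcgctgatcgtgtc
Mrpl17: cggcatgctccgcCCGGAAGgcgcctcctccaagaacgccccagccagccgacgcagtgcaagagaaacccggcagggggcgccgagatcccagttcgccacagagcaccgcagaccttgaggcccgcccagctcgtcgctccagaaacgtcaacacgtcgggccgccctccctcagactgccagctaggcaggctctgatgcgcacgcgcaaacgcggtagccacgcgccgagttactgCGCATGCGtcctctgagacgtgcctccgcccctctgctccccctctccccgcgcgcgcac
Mrpl39: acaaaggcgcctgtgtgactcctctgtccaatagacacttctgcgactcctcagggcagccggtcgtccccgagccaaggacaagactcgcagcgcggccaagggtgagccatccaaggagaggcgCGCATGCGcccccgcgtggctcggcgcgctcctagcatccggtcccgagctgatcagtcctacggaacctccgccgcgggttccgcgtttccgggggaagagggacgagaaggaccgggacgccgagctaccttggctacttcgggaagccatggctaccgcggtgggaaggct
Mrps18c: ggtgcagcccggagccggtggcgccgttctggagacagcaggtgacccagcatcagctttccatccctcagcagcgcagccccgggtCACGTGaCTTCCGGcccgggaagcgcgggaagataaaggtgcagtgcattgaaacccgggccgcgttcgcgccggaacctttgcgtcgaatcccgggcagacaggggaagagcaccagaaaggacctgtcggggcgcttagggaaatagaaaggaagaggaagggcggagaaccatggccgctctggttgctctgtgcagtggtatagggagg

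RefSeq promoters were matched for 66 of the 75 members, and those of Mrpl4, Mrpl13, Mrpl15, Mrpl19, Mrpl38, Mrpl54, Mrps28, Mrps34 and Mrps35 were not matched. The ETS core was found in 23 of the 66 (34.8%), against 9.12% of all 27025 promoters of the same length. The YY1 core was found in 13 (19.7%, against 4.19% of all promoters) and the NRF1 core in 8 (12.1%, against 3.64%). The E-box was found in 5 (7.58%), close to the 7.24% of all promoters. Of the 6 members higher with anti-CD40 and Pam2csk4, 2 had an NRF1 core, 1 an ETS core and 2 a YY1 core, and of the 6 lower, 3 had an ETS core and none had an NRF1 or YY1 core. The other members with low p-values, Mrps6 and Mrpl12, held none of the 4 motifs.

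With anti-CD86 and Pam2csk4, the costimulation at the centre of the study, 16 of 74 members were lower than in unstimulated cells and none was higher. Over all probes 7.38% were called lower and 3.41% higher in this comparison, so the members' share was above that of all probes among the lower calls. The member median was -0.36, against -0.03 over all probes. On both arrays 55 members were below both unstimulated arrays and 2 above, where 36.6% of all probes were below and 27.5% above. The 16 were spread over both subunits, with 10 of 48 in the large and 6 of 26 in the small subunit, and over proteins with a bacterial homolog (10 of 47) and without one (6 of 27).

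Of the 10 large-subunit members called, Mrpl55, Mrpl54 and Mrpl52 are mitochondria-specific proteins. Mrpl55 read 3.23 and 3.32 in unstimulated cells and 2.47 and 2.19 with anti-CD86 and Pam2csk4, a difference of -0.94 ± 0.17 (SE, adjusted p = 0.0205), or -0.80 on slide 1 alone. Mrpl54 read 3.12 and 3.12 unstimulated and 2.57 and 2.10 stimulated, with a difference of -0.78 ± 0.21 (SE, adjusted p = 0.0496) and -0.55 on slide 1. Mrpl52 read 5.29 and 5.32 unstimulated and 4.73 and 4.59 stimulated, with a difference of -0.65 ± 0.12 (SE, adjusted p = 0.0195), and -0.58 on slide 1. In each of the 3 genes the slide 2 array was the lower of the 2 stimulated arrays, and both were below the unstimulated ones.

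Of the 16, 6 were counted in the small subunit, Mrps36 among them by its name. Mrps12, the counterpart of the bacterial protein at the decoding centre in which streptomycin resistance arises, read 1.89 and 1.92 in unstimulated cells and 1.37 and 0.99 with anti-CD86 and Pam2csk4, a difference of -0.73 ± 0.18 (SE, adjusted p = 0.0399), and -0.54 on slide 1. Mrps10, a protein of the head of the small subunit, read 1.28 and 1.31 unstimulated and 0.80 and 0.52 stimulated, a difference of -0.64 ± 0.14 (SE, adjusted p = 0.0323), and -0.50 on slide 1. Mrps36, which carries the name of a ribosomal protein but has since been assigned to the oxoglutarate dehydrogenase complex, read 1.92 and 1.90 unstimulated and 1.31 and 1.28 stimulated, a difference of -0.62 ± 0.12 (SE, adjusted p = 0.0224), and -0.60 on slide 1. The other 10 called members were Mrpl33 (-0.67), Mrpl28 (-0.65), Mrpl44 (-0.61), Mrps16 (-0.61), Mrpl21 (-0.61), Mrpl13 (-0.58), Mrps18c (-0.53), Mrpl1 (-0.51), Mrpl18 (-0.45) and Mrps22 (-0.41), and on slide 1 these 10 lay between -0.56 and -0.38. The members above both unstimulated arrays on both arrays were Mrps18b (-0.12 and -0.30, difference 0.30) and Mrps9 (1.94 and 1.77, difference 0.16), and neither was called. Mrpl23, at the low end (6.37 and 6.34 unstimulated, 5.79 and 5.37 stimulated, difference -0.77), was not called either (adjusted p = 0.0629). Of the 16, 7 had another tested probe and in 2 of these another probe was called lower. In the fit of the 8 slide 1 arrays alone, 20 members were lower and none higher, where 11.2% of all probes were called lower and 9.02% higher, and 14 of the 20 were among the 16; each condition but unstimulated and anti-CD40 and Pam2csk4 then has 1 array and is assumed to vary like these 2. Leaving out 1 array, which leaves 1 array in a condition, left few or no members called and also lowered the calls among all probes. The member median then lay between -0.48 and -0.25, and that of all probes between -0.11 and 0.01.

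With anti-CD40 alone 2 members were higher and 16 were lower, where 6.16% of all probes were called higher and 10.7% lower, so members were called lower at a higher share than all probes and called higher at a lower one. The higher ones were Mrpl50 and Mrpl39, given above, with slide 1 differences of 0.74 and 0.47. With arrays centred on their median Mrpl39 was at -0.16, where the median of all probes was at -0.58. The member median was -0.32, against -0.02 over all probes. The lowest was Mrpl55, at 2.67 and 2.26, a difference of -0.81 ± 0.17 (SE, adjusted p = 0.021) and -0.60 on slide 1. Mrps12 read 1.29 and 1.03, a difference of -0.75 ± 0.18 (SE, adjusted p = 0.0276), and -0.62 on slide 1. Mrpl28, a counterpart of bacterial L28, read 5.11 and 5.21 in unstimulated cells and 4.58 and 4.25 with anti-CD40, a difference of -0.74 ± 0.15 (SE, adjusted p = 0.0186), and -0.58 on slide 1. Mrpl33 read 5.74 and 5.72 unstimulated and 5.18 and 4.84 stimulated, a difference of -0.72 ± 0.17 (SE, adjusted p = 0.0304), and -0.55 on slide 1. In all 4 genes the slide 2 array was the lower of the anti-CD40 arrays, and both were below the unstimulated ones.

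The other members lower with anti-CD40 were Mrps18c, given above, Mrps16 (-0.70), Mrps25 by its brightest probe (-0.66), Mrps24 (-0.64), Mrpl20 (-0.61), Mrpl49 (-0.60), Mrpl21 (-0.58), Mrps10 (-0.55), Mrpl18 (-0.53), Mrpl30 (-0.53), Mrps36 (-0.47) and Mrpl52 (-0.43). On slide 1 these 12 lay between -0.66 and -0.34. On slide 1 alone the fit called 5 members higher and 21 lower, 15 of them among the 18, where 10.3% of all probes were called higher and 12.7% lower. Without anti-CD40 replicate 1 (slide 1) more members and more of all probes were called. Without replicate 2 (slide 2) or either unstimulated array few or no members and fewer of all probes were called. The member median was -0.46 without replicate 1, -0.18 without replicate 2 and -0.32 without either unstimulated array. Mrpl14, a core protein of the large subunit, read 5.85 and 5.83 unstimulated and 6.38 and 5.91 with anti-CD40 and did not pass (difference 0.30, adjusted p = 0.29). Mrps2 (difference 0.67, adjusted p = 0.0752) and Mrps18b (-0.12 and -0.14, difference 0.38, adjusted p = 0.0711) also lay above both unstimulated arrays and did not pass.

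For the single stimulations of the CD86 and TLR-2 pair the number of members called depended on how slide was treated. With Pam2csk4 limma called 0 of 74 members, where 0.101% of all probes were called higher and 0.0443% lower, and 14 members had an unadjusted p below 0.05. The member median was -0.21 against -0.07 over all probes. With anti-CD86 limma called 0 of 74, where 0.978% of all probes were called higher and 1.19% lower, and 32 members had an unadjusted p below 0.05. The member median was -0.31 against -0.05. With slide as a block limma called 2 members higher and 10 lower with Pam2csk4, where 4.71% of all probes were called higher and 6.40% lower, and 3 higher and 32 lower with anti-CD86, where 12.95% were called higher and 15.5% lower. On slide 1 alone the member medians were -0.11 with Pam2csk4 and -0.27 with anti-CD86, against -0.02 and -0.07 over all probes.

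The largest non-overlapping differences with Pam2csk4 were those of the brightest probe of Mrps25 (-0.96 and -1.25, difference -0.66, adjusted p = 0.137, slide 1 -0.52), of Mrpl55 (2.84 and 2.57, -0.57, slide 1 -0.43), Mrps31 (1.61 and 1.19, -0.54, slide 1 -0.33) and Mrpl34 (3.25 and 2.91, -0.52, slide 1 -0.35), and the 1 member above both unstimulated arrays was Mrps9 (1.63 and 1.76 unstimulated, 1.99 and 1.89 with Pam2csk4, difference 0.24, slide 1 0.30). Above both unstimulated arrays lay 19.8% of all probes, and 52 members lay below both, as did 37.7% of all probes. With anti-CD86 the lowest were Mrpl54 (2.46 and 2.16, difference -0.81, adjusted p = 0.0791, slide 1 -0.66), Mrpl55 (2.51 and 2.44, -0.80, adjusted p = 0.0582, slide 1 -0.76), Mrpl23 (5.80 and 5.45, -0.73, slide 1 -0.56) and Mrps11 (-0.83 and -0.86, -0.64, slide 1 -0.63). The 3 members above both unstimulated arrays were Mrpl37 (0.21, slide 1 0.33), Mrps9 (0.21, slide 1 0.32) and Mrps18b (0.14, slide 1 0.21). Of all probes 25.4% lay above both unstimulated arrays, and 59 members and 37.0% of all probes lay below both. Mrpl55 was among the lowest with either stimulation, and both comparisons are made against the same 2 unstimulated arrays.

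The costimulations were then compared with each other. With anti-CD40 and Pam2csk4, 12 of 74 members were higher than with anti-CD86 and Pam2csk4 and none was lower, where 7.48% of all probes were called higher and 4.82% lower, so the members' share of higher calls exceeded that of all probes. The median over the members was 0.33 and over all probes 0.04, and on 50 members both arrays of the first condition were above both of the second and on 2 below, where 35.6% of all probes were above and 25.3% below. Slide enters this comparison, since the anti-CD86 and Pam2csk4 arrays were on both slides and the others on slide 1. On slide 1 alone the member median was 0.16, against 0.02 over all probes, and the fit of slide 1 arrays called 17 members, all higher, including all 12, where 10.95% of all probes were called higher and 9.75% lower.

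Small-subunit proteins held 4 of the 12. Mrps6 read 2.89 and 2.55 with anti-CD86 and Pam2csk4 and 3.77 and 3.71 with anti-CD40 and Pam2csk4, a difference of 1.02 ± 0.18 (SE, adjusted p = 0.00986), or 2.03-fold, and 0.85 on slide 1. Mrps2 differed by 0.93 ± 0.22 (SE, adjusted p = 0.0319) and by 0.66 on slide 1. Mrps17, a counterpart of bacterial S17, read 2.82 and 2.65 with anti-CD86 and 3.45 and 3.35 with anti-CD40, each with Pam2csk4, and differed by 0.66, and Mrps28 read 4.85 and 4.60 with anti-CD86 and 5.35 and 5.38 with anti-CD40, each with Pam2csk4, and differed by 0.64.

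The other 8 were large-subunit proteins. Mrpl12, of the stalk, read 4.77 and 4.42 with anti-CD86 and Pam2csk4 and 5.49 and 5.57 with anti-CD40 and Pam2csk4, a difference of 0.94 ± 0.18 (SE, adjusted p = 0.0147), and 0.76 on slide 1. Mrpl17, a counterpart of a bacterial protein near the exit of the peptide tunnel, read 1.63 and 1.48 with anti-CD86 and 2.39 and 2.23 with anti-CD40, each with Pam2csk4, a difference of 0.76 ± 0.12 (SE, adjusted p = 0.00668). Mrpl15, a core protein, read 0.09 and 0.40 with anti-CD86 and 1.11 and 1.07 with anti-CD40, each with Pam2csk4, a difference of 0.84 ± 0.15 (SE, adjusted p = 0.0113), and it is the one whose slide 1 value (1.00) was larger than its value over both slides. Mrpl50 differed by 0.97, Mrpl14 by 0.84, Mrpl32 by 0.74, Mrpl13 by 0.58 and Mrpl39 by 0.46. Of the 12 members, 10 have a bacterial homolog (10 of 47 tested) and Mrpl39 and Mrpl50 have none (2 of 27). Leaving out 1 array, which leaves 1 array in a condition, lowered the calls among members and among all probes. The member median then lay between 0.16 and 0.49.

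**Figure D4:**
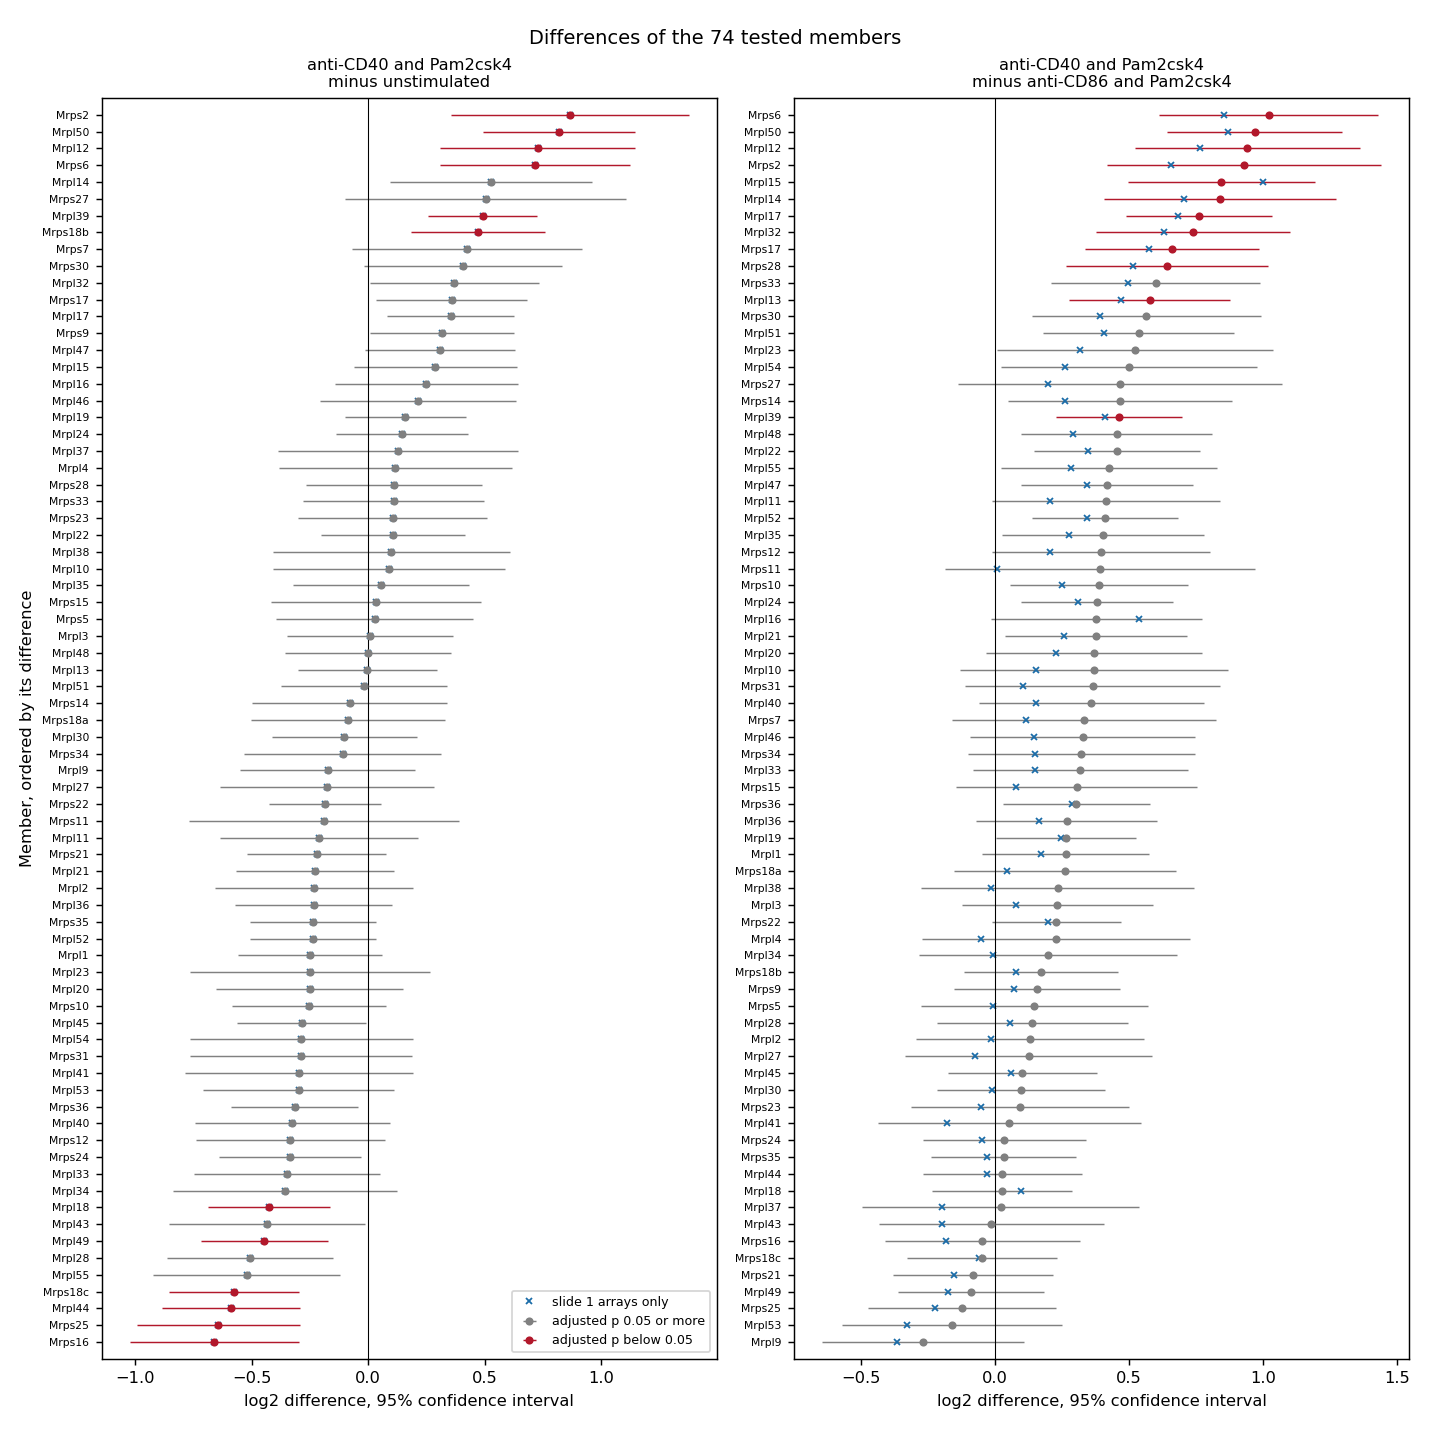
Log2 difference of each of the 74 tested members with its 95% confidence interval, ordered by size, for anti-CD40 and Pam2csk4 against unstimulated cells (left) and against anti-CD86 and Pam2csk4 (right); red marks adjusted p below 0.05 and crosses the difference on slide 1 arrays alone, which on the left coincides with the point. Called members stand at both ends on the left and all lie above 0 on the right.

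Against Pam2csk4 alone, adding anti-CD40 raised 5 members and lowered none, where 6.73% of all probes were called higher and 3.24% lower, so the members' share of higher calls was close to that of all probes. Slide 1 arrays alone called 7 higher and 1 lower, where 9.05% of all probes were called higher and 6.94% lower. The 5 were Mrps6 (0.92), Mrpl12 (0.88), Mrpl50 (0.79), Mrpl39 (0.53) and Mrpl17 (0.52), and on slide 1 they differed by 0.76, 0.73, 0.66, 0.50 and 0.46. The member median was 0.17 over both slides and 0.02 on slide 1, where that of all probes was 0.03 and 0.02. Leaving out 1 array, which leaves 1 array in a condition, left few or no members called and also lowered the calls among all probes. The member median then lay between 0.02 and 0.29. Adding anti-CD86 to Pam2csk4 gave 0 called members by limma, where 0.0158% of all probes were called higher and 0.0475% lower; 3 members had an unadjusted p below 0.05 and the member median was -0.14. Whether anti-CD86 acted differently with and without Pam2csk4 was tested as an interaction, which called 0 of 74 members, where 0.019% of all probes were called, with 1 member at an unadjusted p below 0.05. The same test for anti-CD40 called 0 of 74, where 1.16% of all probes were called, with 30 members at an unadjusted p below 0.05. With slide as a block it called 9 members, all above 0, where 8.59% of all probes were called, and with the replicate number as a block 2, where 4.44% were called. The median anti-CD40 interaction was 0.49 over the members, against 0.16 over all probes. It was above 0 in 71 of 74 members, a count not made over all probes. Slide enters this test, since the single stimulations each had 1 array on slide 2 and its other conditions had none. The slide 1 arrays gave medians of 0.22 and 0.06, and the slide block gave 0.26 and 0.07. The lowest adjusted p-value of a member in the anti-CD40 interaction was 0.142, for Mrpl21, whose interaction was 0.76. A dimmer probe of Mrps5, a small-subunit protein whose brightest probe was not called in any of these tests, had a called interaction of 2.37 (adjusted p = 0.0272), was higher by 1.40 between the costimulations and by 1.46 against Pam2csk4, and was lower with anti-CD40 alone (difference -0.90), all called, whereas the remaining Mrps5 probe was not called in them.

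In the test of any difference among the 6 conditions 11 of 74 members passed, where 20.4% of all probes passed. With slide as a block 60 members passed, where 59.96% of all probes did, so the order of the 2 shares turned with the fit. The 11 were Mrpl50, Mrpl17, Mrpl39, Mrps18c, Mrps6, Mrpl12, Mrpl14, Mrpl55, Mrps2, Mrpl52 and Mrpl15, with adjusted p-values from 0.00843 to 0.0429. Leaving out an array of any condition but anti-CD40, which leaves 1 array there, lowered the passes among members and among all probes. Leaving out anti-CD40 replicate 1 raised both, and leaving out its replicate 2 raised only those among members.

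Several members with well known roles did not pass in the comparison of anti-CD40 and Pam2csk4 with unstimulated cells. Mrpl10, which anchors the stalk, read 1.75 and 1.77 in unstimulated cells and 1.87 and 1.83 with anti-CD40 and Pam2csk4, a difference of 0.09 (95% confidence interval -0.41 to 0.59). Mrpl11, at the base of the stalk, read 4.07 and 4.18 unstimulated and 3.94 and 3.89 stimulated, a difference of -0.21 (-0.64 to 0.21). Thus of the 3 stalk genes only Mrpl12 was called, and the differences between them were not tested. Of the large-subunit core, Mrpl2 differed by -0.23 (-0.66 to 0.19), Mrpl3 by 0.01 (-0.35 to 0.36) and Mrpl4 by 0.12 (-0.38 to 0.62).

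Mrps7, of the head of the small subunit, read 3.37 and 3.39 unstimulated and 3.78 and 3.83 stimulated, a difference of 0.43 (-0.07 to 0.92), and Mrps12 differed by -0.33 (-0.74 to 0.07). Mrps30, once described as a cell death protein and now placed in the large subunit, read 3.83 and 3.80 unstimulated and 4.26 and 4.18 stimulated, a difference of 0.41 (-0.02 to 0.83). Mrpl37 and Mrpl41, also mitochondria-specific, differed by 0.13 (-0.39 to 0.65) and -0.30 (-0.79 to 0.19), and Mrps36 by -0.32 (-0.59 to -0.04).

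Other genes of mitochondrial translation were read from the same fit. Of all probes 8.54% were called higher and 9.7% lower with anti-CD40 and Pam2csk4 than in unstimulated cells. Of the 6 mitochondrial ribosomal proteins whose names lack the prefix, Ptcd3, a small-subunit protein, was the 1 called with anti-CD40 and Pam2csk4. It read 4.79 and 4.76 in unstimulated cells, 5.48 and 5.22 with anti-CD40 and 5.46 and 5.54 with anti-CD40 and Pam2csk4, a difference of 0.73 ± 0.12 (SE, adjusted p = 0.00557). Of 12 mitochondrial translation factors 1 was higher and 1 lower: Mtrf1l, a release factor, differed by 0.51 ± 0.12 (SE, adjusted p = 0.0227), and Guf1, a GTPase related to elongation factor 4, by -0.47 ± 0.10 (SE, adjusted p = 0.016). Of 18 tested genes of mitoribosome assembly and rRNA modification 2 were higher and 1 was lower. The higher ones were the rRNA methyltransferase Rnmtl1 (0.93) and Wbscr16. Wbscr16 read 0.88 and 0.88 unstimulated and 2.02 and 1.93 with anti-CD40 and Pam2csk4. The lower one was the assembly GTPase Mtg1 (-0.64). Mtg1 read 1.37 and 1.37 in unstimulated cells and lay below that on all 10 stimulated arrays.

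Of 14 genes of mitochondrial transcription and RNA handling, the RNA helicase Supv3l1 was higher by 1.14 ± 0.15 (SE, adjusted p = 0.00231), and Mterfd3 was lower, with a difference of -1.15 ± 0.16 (SE, adjusted p = 0.00253). limma called 0 of 17 mitochondrial aminoacyl-tRNA synthetases in this comparison, and 2 had an unadjusted p below 0.05. Of 9 tested regulators of mitochondrial gene expression 4 were higher and 1 was lower, where 8.54% of all probes were called higher and 9.7% lower. Myc read 4.95 and 5.02 in unstimulated cells and 7.28 and 7.27 with anti-CD40 and Pam2csk4, a difference of 2.29 ± 0.18 (SE, adjusted p = 0.000242). Gabpb1, the partner subunit of the ETS factor GABPA, differed by 0.86, the PGC1-related coactivator Pprc1 by 0.63 and the transcription factor Nrf1 by 0.50. The coactivator Ppargc1a was lower, with -0.11 and -0.02 in unstimulated cells and -1.24 and -1.40 with anti-CD40 and Pam2csk4, a difference of -1.25 ± 0.13 (SE, adjusted p = 0.000821). No gene name of the mitochondrially encoded list was found on the array, so the products of the organelle's own genome were not analysed here.

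Nuclear-encoded subunits of oxidative phosphorylation, the complexes that the mitochondrial ribosome helps to build, were set beside the members as a description. Their median over 87 tested genes was -0.15 with anti-CD40 and Pam2csk4, with 3 called higher and 2 lower, and -0.45 with anti-CD86 and Pam2csk4, with 1 higher and 18 lower. Ribosome biogenesis factors, which build the cytosolic ribosome, had a median of 0.90 over 39 tested genes with anti-CD40 and Pam2csk4, with 26 called higher and 2 lower, and 0.66 with anti-CD40 alone, with 23 higher and none lower. With anti-CD86 and Pam2csk4 the median of the biogenesis factors was 0.08, with 2 higher and none lower. Of all probes 8.54% were called higher and 9.7% lower with anti-CD40 and Pam2csk4. These shares were 6.16% and 10.7% with anti-CD40, and 3.41% and 7.38% with anti-CD86 and Pam2csk4. Among 79 cytosolic ribosomal proteins 66 were saturated on at least 1 array, so no comparison with them is made. All of these comparisons share the unstimulated arrays.

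**Figure D5:**
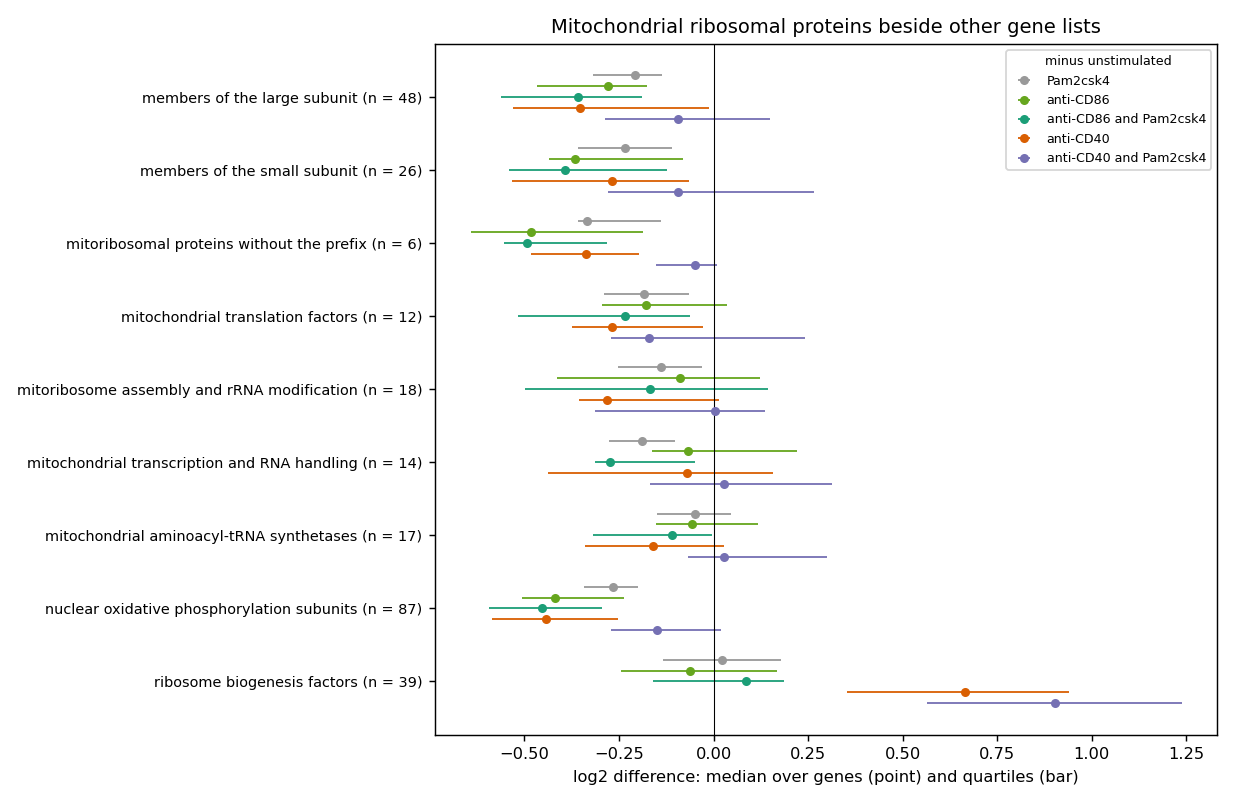
Median log2 difference from unstimulated cells (points) and quartiles over the genes (bars) for members of each subunit and for other gene lists, by stimulation; n is the number of genes tested. Members of both subunits and oxidative phosphorylation subunits have medians below 0 in all 5 stimulations, and ribosome biogenesis factors lie at 0.66 and 0.90 in the 2 conditions with anti-CD40.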

How the data were processed

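Expression was measured on Agilent single-colour arrays (Cy3-labelled cRNA) in 12 samples, 6 conditions with 2 arrays each. The deposited scanner files hold the processed intensity of each spot, which the authors' Feature Extraction software (10.5.1.1) had background-subtracted and detrended, with flags for spots that were well above background, saturated or outliers. The authors also deposited a log2 value table, which equals the log2 processed intensity minus a constant per array within 0.01 and was used as an alternative.

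Outlier spots were left out, log2 intensities were centred on each array's 75th percentile, and spots of a probe were averaged. A probe was kept if both arrays of some condition showed it well above background, which held for 31669 of 61307 probes, and 70 of these lacked a value, leaving 31599. limma (3.58.1, R 4.3.3) was fitted to them with 1 coefficient per condition and tested on simulated data. Interactions are the combined effect minus the sum of the single effects. Only 2 arrays per condition limits the precision.

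Named members are those called in a comparison, the 4 highest and 4 lowest non-overlapping ones against unstimulated cells, and members with known roles. The members, gene lists and tests were chosen with earlier results of these data known. Alternatives were other normalizations (median, quantile), normexp background correction (offset 50), the deposited value table, no filter on dim probes, slide or replicate number as a block, any probe of a gene, an ordinary one way F test, and leaving out each array. A fit of slide 1 arrays alone was added after the data were seen. All 75 members matched a RefSeq gene with the same symbol. The red cell marker list is not reported here.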

Additional observations from a re-analysis of the deposited data

How the results depend on the processing

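Counts of members called by limma depended on the processing more than the directions did. In order of the comparisons with unstimulated cells (Pam2csk4, anti-CD86, anti-CD86 and Pam2csk4, anti-CD40, anti-CD40 and Pam2csk4), the counts were 0, 0, 16, 18 and 12. With slide as a block they were 12, 35, 46, 43 and 47, and 9 for adding anti-CD86 to Pam2csk4, 27 for adding anti-CD40 to Pam2csk4 (5 without the block), 31 between the costimulations (12 without), 9 in the anti-CD40 interaction and 60 for any difference (11 without). All probes moved too: with the block 11.1%, 28.5%, 35.1%, 37.3% and 47.5% of them were called in the same 5 comparisons, then 10.96%, 31.5%, 34.6%, 8.59% and 59.96%. With quantile normalization anti-CD86 gave 4, anti-CD40 30, anti-CD40 and Pam2csk4 19, adding anti-CD40 to Pam2csk4 11, and any difference 26. Of all probes 5.15%, 20.3%, 20.3%, 12.6% and 24.05% were called in the same order. normexp gave 4 for anti-CD86 and 21 for any difference, where 4.27% and 23.5% of all probes were called. Centring on the median gave 0 in every comparison, where at most 3.21% of all probes were called. It put the median of all probes at -0.58 with anti-CD40 (against -0.02) and at 0.81 in the anti-CD40 interaction (against 0.16). Member medians were -0.65 for anti-CD86 and Pam2csk4, -0.88 for anti-CD40 and -0.40 for Pam2csk4. Without the filter on dim probes 0 members were called for anti-CD86 and Pam2csk4, 1 for anti-CD40, 1 for anti-CD40 and Pam2csk4, 0 for adding anti-CD40 to Pam2csk4, 3 between the costimulations and 0 for any difference. Of all unfiltered probes 0.0425%, 1.82%, 4.06%, 1.54%, 2.05% and 2.52% were called in the same order. Counting any probe of a gene gave 1 for anti-CD86 and 1 in the anti-CD40 interaction. Slide 1 arrays alone, a fit chosen after seeing the data, gave 38 for anti-CD40 and Pam2csk4, 8 for adding anti-CD40 to Pam2csk4 and 23 for any difference. Leaving out 1 array gave 0 to 4 for anti-CD86 and Pam2csk4, 0 to 28 for anti-CD40, 0 to 1 for anti-CD40 and Pam2csk4, 0 to 3 for adding anti-CD40 to Pam2csk4, 1 to 9 between the costimulations, 1 to 20 for any difference, and 0 to 0 in the others. The ordinary one way F test called 11 members, 6 of them among the 11 of limma, where 18.4% of all probes were called. In the slide 1 fit the members' share of calls was above that of all probes for anti-CD40 and Pam2csk4. It was below that of all probes for adding anti-CD40 to Pam2csk4 and for any difference. Without anti-CD40 replicate 1, which gave the 28 for anti-CD40, more of all probes were called too. Counts from fits with 1 array in a condition are not read as a result about the members. The causes were not tested.

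Replicate number as a block gave 21 for anti-CD86, 36 for anti-CD86 and Pam2csk4, 36 for anti-CD40, 20 for anti-CD40 and Pam2csk4, 13 for adding anti-CD40 to Pam2csk4, 24 between the costimulations, 2 in the anti-CD40 interaction and 41 for any difference, where 12.6%, 24.6%, 29.8%, 27.0%, 17.0%, 21.3%, 4.44% and 37.5% of all probes were called. Deviations of same-numbered arrays correlated at 0.54 to 0.67 among the 4 conditions that spanned both slides. In pairs with unstimulated or anti-CD40 and Pam2csk4 arrays they correlated at -0.11 to 0.07. Within the 4 conditions pairing by replicate number cannot be told apart from slide. The pair that lay on slide 1 alone, unstimulated with anti-CD40 and Pam2csk4, correlated at 0.07.

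Among named members, 8 values changed sign, none of them called in the alternative. With the median these were Mrps18b (-0.0041 with anti-CD86, -0.18 with anti-CD40), Mrps9 (anti-CD86 and Pam2csk4, -0.12), Mrpl39 (anti-CD40, -0.16), and Mrpl3 (-0.10) and Mrpl10 (-0.018) with anti-CD40 and Pam2csk4. Mrpl3 was at -0.043 with normexp, and between -0.0042 and 0.019 without 1 replicate of anti-CD40 and Pam2csk4. By their brightest probe all members were well above background on all arrays. The part of background in the counts was not tested.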
